A study of Homo sapiens with 12 samples.

Results

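Antisense RNA genes whose symbol ends in -AS1 were examined across Hodgkin lymphoma and B-cell leukaemia and lymphoma lines. A gene was kept when its mean FPKM over the 2 libraries of a condition was at least 1 in at least 1 of 6 conditions. This rule kept 385 of the 874 AS1 genes in a table of 26210 gene symbols. The same threshold kept 15062 genes of all kinds, and these were the genes tested. The members were thus selected on measured level, so counts and medians over them are descriptions. A member that passed through a single condition had to be higher there than elsewhere.

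The study sequenced ribosome-depleted total RNA in duplicate. The classical Hodgkin lymphoma (cHL) lines KM-H2, L1236 and L428 stood against the B-cell lines Namalwa, from Burkitt lymphoma, and Reh, from B-precursor leukaemia. Reh was also sequenced after treatment with phorbol myristate acetate (PMA) at 2 ng/ml, an activator of protein kinase C. The cHL lines derive from Hodgkin and Reed-Sternberg (HRS) cells and are called HRS lines below. They were grown in another medium than Namalwa and Reh, so medium and lymphoma type went together. Libraries are called 0 and 1 here, since the table does not say which of them is the first duplicate.

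Antisense RNAs are transcribed from the strand opposite a protein-coding gene and are named after that sense gene. Many start close to the promoter of the sense gene and run away from it, while others lie inside it or meet its far end. Some act on the transcription or the RNA of the neighbouring gene, some host small nucleolar RNAs, and for most no function is known. Where an antisense gene overlaps its sense gene, reads of both can be told apart only by strand. The library kit kept strand, but the strand setting of the counting is not given in the sources used here. Values of overlapping pairs are therefore uncertain.

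4 of the 12 libraries stood apart in how they treated overlapping genes. In 52 pairs, a gene with at least 50% of its exons opposite those of another gene was compared with that partner, which had at least 5 FPKM in every library. None of these pairs holds a gene with an antisense symbol. The median level of the covered gene was 4.95% of its partner in L1236 library 1, 5.55% in L428 library 1, and 3.03% and 3.79% in the 2 Reh+PMA libraries. In the other 8 libraries it lay between 14.5% and 22.7%. Covered genes below 1% of their partner numbered 19, 23, 20 and 21 in the 4 libraries and 4 to 8 in the others.

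**Figure D1:**
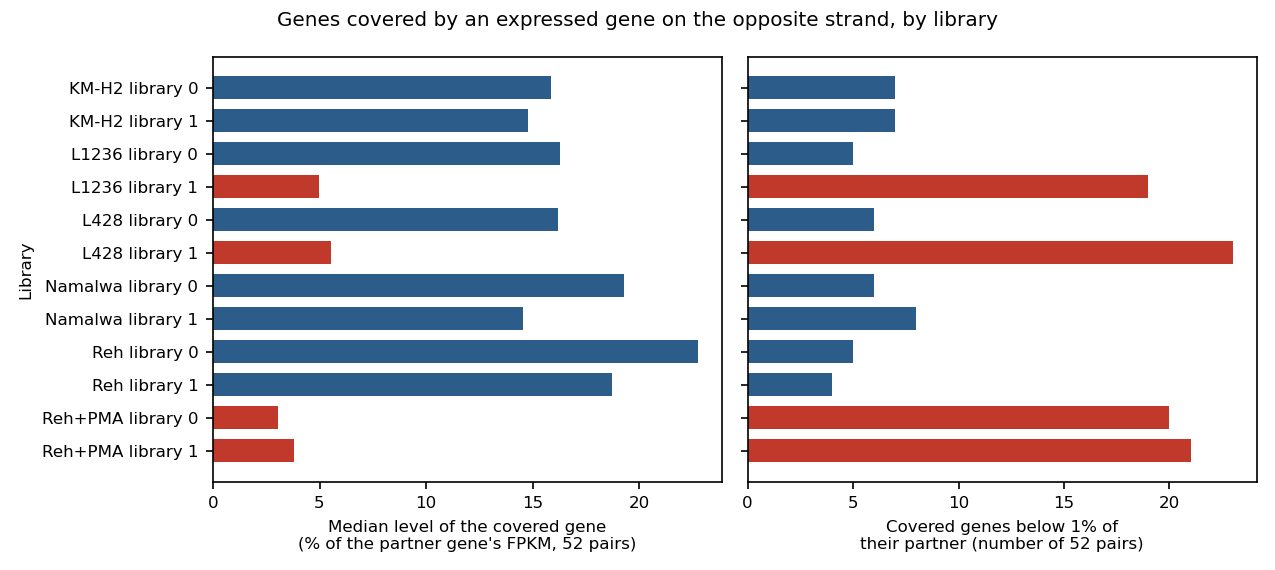
Level of 52 genes covered by a gene on the opposite strand, in each of 12 libraries, as the median percent of the partner's FPKM (left) and as the number of pairs below 1% (right). Red bars mark the 4 libraries that stood apart, with 19 to 23 pairs below 1% against 4 to 8 in the other 8.

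The chart of covered genes shows that the split ran through the duplicates of L1236 and of L428 and took in both libraries of Reh+PMA. KM-H2, Namalwa and untreated Reh had no such library. PMA treatment and library behaviour therefore cannot be fully told apart. Of the 385 members, 21 were at least 4-fold lower in library 1 than in library 0 of both L1236 and L428, and 0 were 4-fold higher. Among all 15062 genes, 162 were lower by this measure and 93 higher. None of the 62 members without exon overlap on the opposite strand was among the lower ones, against 6 of the 28 with over 50% overlap. The cause of the split was not tested, and results that rest on these libraries are given with and without them below.

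The lines differed in marker genes of cell types. TNFRSF8, the CD30 receptor that marks HRS cells, was at 19.1 to 63.7 FPKM in the HRS libraries and at 0.0298 to 0.505 in those of untreated Reh and Namalwa. PAX5, a B-cell transcription factor, was at 33.8 and 19.8 in L1236 and below 2 in KM-H2 and L428. The precursor markers did not move as 1 group. DNTT, the terminal transferase of lymphocyte precursors, was listed above 0 only in the 4 libraries of Reh with or without PMA. VPREB1, of the surrogate light chain, was at 11.4 and 7.89 in Namalwa and at 0 in all others. RAG1, a recombinase gene, was at 435 and 384 in Reh, 5.09 and 11.9 in Reh+PMA, 35.7 and 19.2 in Namalwa, and 0.488 or less in the HRS lines. CD3D, a T-cell receptor component, was at 13.5 and 22.5 in KM-H2 and at 0 in all other libraries, whereas CD3E, another component, was at 0.197 or less in all 12. CSF1R, the receptor for macrophage colony-stimulating factor, was at 11.8 and 11.2 in Reh+PMA and at 2.05 or less elsewhere.

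Members were weaker than tested genes overall and less often listed in every condition. The number with a mean of at least 1 FPKM was 255 in KM-H2, 231 in L1236, 245 in L428, 216 in Namalwa, 236 in Reh and 136 in Reh+PMA. The median member was at 1.64 FPKM in KM-H2, 1.46 in L1236, 1.51 in L428, 1.25 in Namalwa, 1.42 in Reh and 0.499 in Reh+PMA. Over all 15062 tested genes the median was 6.5 to 7.54 in the 6 conditions. Thus 5 conditions were alike for members and Reh+PMA was lower. In each of these 5, library 1 had a lower member median than library 0, at 1.44 and 1.79 in KM-H2, where neither was set apart, and 1.17 and 1.42 in L1236, where library 1 was. At least 1 FPKM was reached in all 6 conditions by 83 members (21.6%, against 58.6% of all tested genes) and in a single condition by 100 (26%, against 13.4%). The highest condition mean of a member fell in KM-H2 for 86, L1236 for 61, L428 for 98, Namalwa for 56, Reh for 64 and Reh+PMA for 20.

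The most highly expressed member was LRRC75A-AS1, a host of small nucleolar RNAs. LRRC75A-AS1 was at 469 and 555 FPKM in KM-H2, 351 and 500 in L1236, 1354 and 1541 in L428, 260 and 328 in Namalwa, 534 and 558 in Reh, and 512 and 586 in Reh+PMA. L428 stood above all other libraries with no overlap, and the set-apart libraries of L1236 and L428 were not below their duplicates. Its sense gene LRRC75A reached 8.48 FPKM at most. The snoRNA host EPB41L4A-AS1 was at 97.0 and 69.6 FPKM in Reh+PMA, 64.4 in L428 library 1 and 6.96 to 31.5 in the other 9 libraries. The 3 highest values of EPB41L4A-AS1 were thus all in libraries that stood apart. EPB41L4A-AS1 was called lower in L1236, with a log2 change of -1.46 (SE 0.45, adjusted p = 0.027), and -1.65 without the 4 libraries (adjusted p = 0.019), but not with either L1236 library alone left out (adjusted p = 0.16 and 0.086).

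OIP5-AS1, named after a centromere protein gene, was at 23 to 58.5 FPKM in all 12 libraries. FGD5-AS1, named after a guanine nucleotide exchange factor gene, was as even, at 24.2 to 48.2, while FGD5 itself did not exceed 0.0305. OIP5-AS1 and FGD5-AS1 were the steady members among the 10 with the highest mean, and neither was called in any comparison. PITPNA-AS1, which overlaps a phosphatidylinositol transfer protein gene, was at 47.2 and 90.7 in L428 and at 9.15 to 35.0 elsewhere. THAP9-AS1, which overlaps a gene derived from a transposase, was at 9.14 and 12.7 in Reh+PMA against 36.9 and 30.0 in Reh. L428 was highest for PITPNA-AS1 without overlap, whereas THAP9-AS1 values of the lines overlapped. THAP9-AS1 was called lower in KM-H2 at -1.07 (SE 0.39, adjusted p = 0.049), near the threshold, and after PMA at -1.58 (SE 0.45, adjusted p = 0.027), and -2.51 with the library term (adjusted p = 0.011). Without KM-H2 library 0 the KM-H2 change of THAP9-AS1 was -0.60 (adjusted p = 0.36), and the PMA call was lost with any 1 of the 4 Reh and Reh+PMA libraries left out (adjusted p = 0.066 to 0.16). Both calls of THAP9-AS1 are therefore uncertain.

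PCNA-AS1 overlaps PCNA, the sliding clamp of DNA replication, and its values followed the kind of library. PCNA-AS1 was at 181 and 137 FPKM in KM-H2, 276 and 0.549 in L1236, 246 and 0 in L428, 288 and 509 in Namalwa, 437 and 560 in Reh, and 1.89 and 0 in Reh+PMA. PCNA was at 229 and 106 in KM-H2, 274 and 288 in L1236, 224 and 225 in L428, 283 and 450 in Namalwa, 434 and 452 in Reh, and 122 and 120 in Reh+PMA. In 8 libraries the antisense gene was thus listed near the level of PCNA, and in the 4 libraries set apart it was listed near 0 while PCNA was not. Duplicates of L1236 and of L428 did not resemble each other. Reads of PCNA and of its antisense gene cannot be told apart here, and the level of PCNA-AS1 is not taken as known in any line.

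FBXO22-AS1, named after an F-box protein gene, showed the same split. FBXO22-AS1 was at 40.4 to 66.0 FPKM in the 8 other libraries and at 0, 0, 0.481 and 0 in the 4 set apart. UGDH-AS1, which overlaps the UDP-glucose dehydrogenase gene, was at 14.4 to 95.1 in the 8 libraries and at 0.392, 1.04, 0.0232 and 0.0875 in the 4. SMARCA5-AS1, which overlaps the gene of a chromatin-remodelling ATPase, was at 5.37 to 26.7 in the 8 and at 0.220, 0.230, 0.400 and 0 in the 4. For FBXO22-AS1, UGDH-AS1 and SMARCA5-AS1 the 2 kinds of library did not overlap, whatever the line. These are 3 of the 21 members that were 4-fold lower in library 1 of both L1236 and L428.

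**Figure D2:**
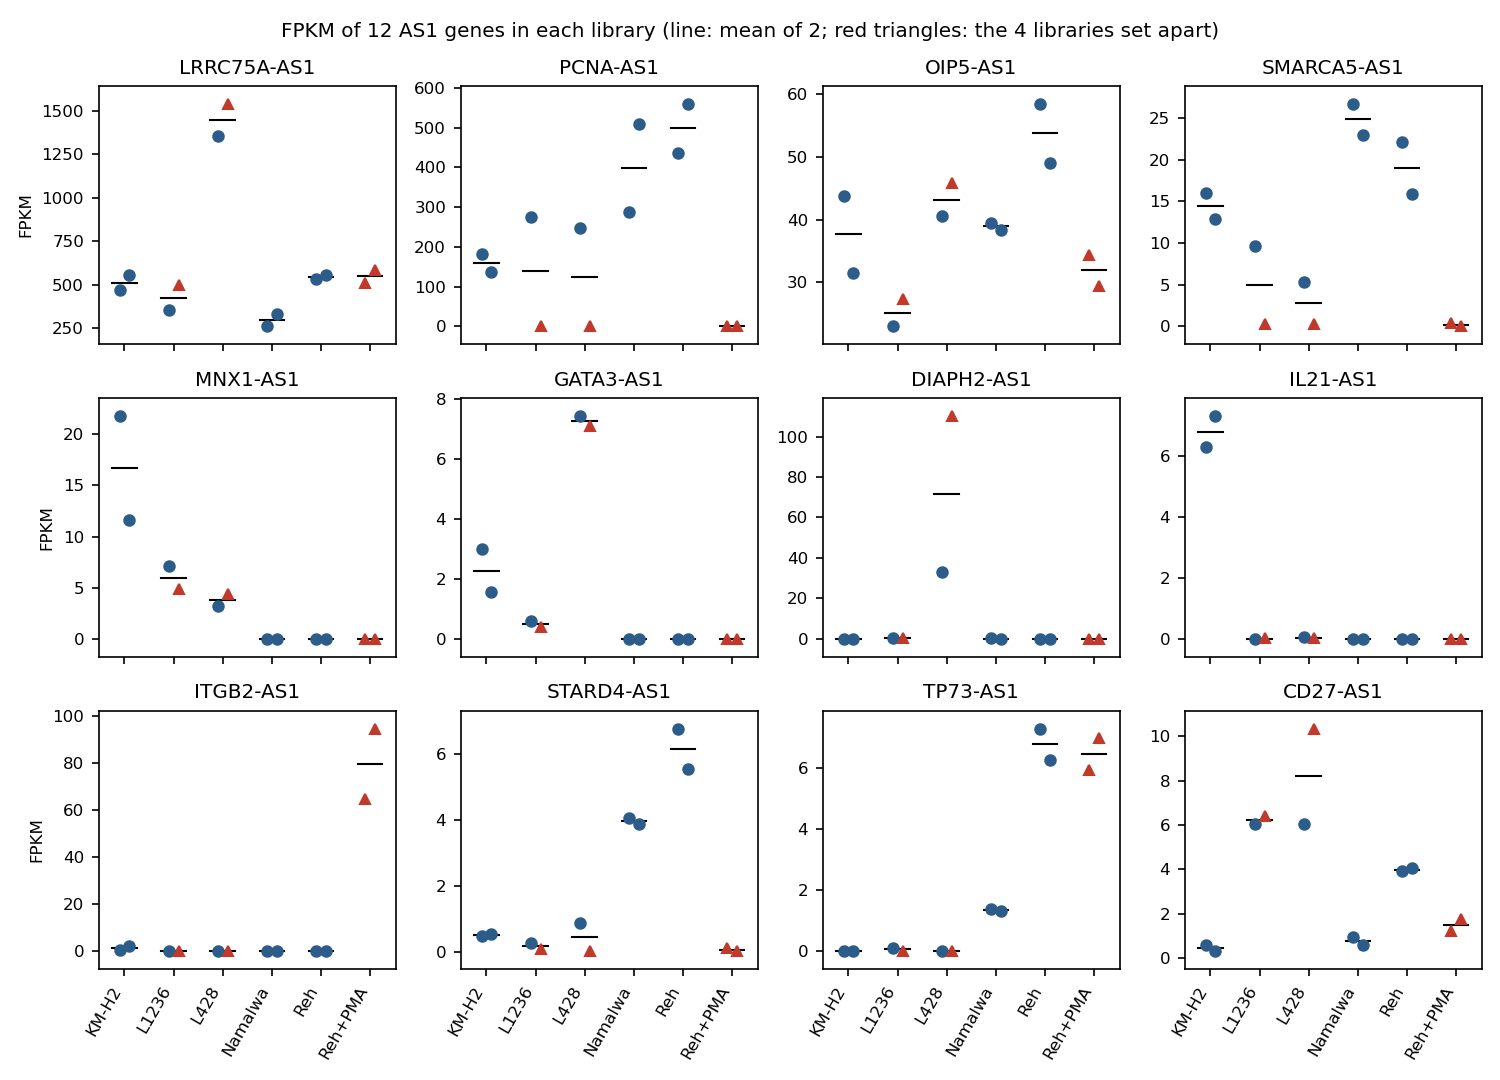
FPKM of 12 AS1 genes in the 2 libraries of each of 6 conditions, with the mean as a line and the 4 libraries set apart as red triangles. PCNA-AS1 and SMARCA5-AS1 split by kind of library, whereas LRRC75A-AS1, highest in L428 at 1354 and 1541 FPKM, and ITGB2-AS1, highest in Reh+PMA at 64.8 and 94.7, did not.

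The panels of FPKM by library also show members found in 1 line alone. The mean in a single condition was at least 5 times that in every other for 37 members: 18 in KM-H2, 4 in L1236, 2 in L428, 1 in Namalwa, 7 in Reh and 5 in Reh+PMA. For 9 of these the other 5 conditions were listed at 0, and 7 of the 9 were KM-H2 genes. The same count over all tested genes is not given, so these numbers are not read as particular to members. With Reh and Reh+PMA taken as 1 condition, 12 members were restricted to it.

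ST8SIA6-AS1, named after a sialyltransferase gene, was at 9.66 and 12.2 FPKM in KM-H2 and at 0 in all other libraries. BBOX1-AS1, named after a carnitine synthesis enzyme gene, was at 5.54 and 4.01 in KM-H2 and at 0 elsewhere. KCNQ1-AS1, named after a potassium channel gene, was at 3.77 and 5.57 in KM-H2 and at 0 elsewhere. These 3 genes were thus seen in both KM-H2 libraries and in no other. ZNF385D-AS1 was at 2.37 and 2.07, and PLS3-AS1, overlapping a gene of the actin-bundling plastins, at 0.976 and 1.41, both in KM-H2 alone. DOCK9-AS1 was at 2.42 in KM-H2 library 0 and at 0 in the other 11, so it rested on 1 library.

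C1QTNF1-AS1 was at 1.36 and 1.60 FPKM in L428 and at 0 elsewhere, and C1QTNF1 itself was at 4.80 and 4.82 in L428 and at 0.130 or less elsewhere. Gene and antisense gene were therefore both L428 genes. PARD3-AS1, named after a cell polarity gene, was at 1.25 and 2.90 in Reh and at 0 in every other library, Reh+PMA included. ZNF793-AS1 was at 3.63 and 2.57 in Reh, 1.85 and 1.14 in Reh+PMA, and 0 elsewhere. SH3RF3-AS1 was at 1.17 and 0.632 in Reh, 3.83 and 1.42 in Reh+PMA, and 0 elsewhere. ZNF793-AS1 and SH3RF3-AS1 were thus Reh genes with or without PMA.

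Each HRS line was compared with the mean of untreated Reh and Namalwa, so the 3 comparisons share their controls and cannot be counted as separate evidence. Changes are on the scale of log2(FPKM + 0.5), which understates those of weak genes. A gene was called when its adjusted p was below 0.05 and its log2 change at least 1 in size. The p-values measure only the spread between duplicate libraries, which may be technical, and a lower level in bulk RNA may mean fewer cells or less RNA per cell. SE is the standard error of a log2 change. Some members passed the threshold in 1 condition alone, such as ST8SIA6-AS1, AFAP1-AS1, CCDC144NL-AS1, IL21-AS1 and IGFBP7-AS1 in KM-H2. Others were CYP1B1-AS1 in L1236, DIAPH2-AS1 and MAFA-AS1 in L428, and KCNJ2-AS1 in Reh+PMA. For all of these, being higher there was fixed by the selection, so those p-values are no evidence of it. GLIS2-AS1 and RGMB-AS1 passed through Reh alone, so their being lower than Reh elsewhere was fixed in the same way.

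In KM-H2, the members that were higher than in the controls included MNX1-AS1, ST8SIA6-AS1, AFAP1-AS1, CCDC144NL-AS1 and IL21-AS1, the 5 with the largest log2 changes. Of the 385 members, 59 were called higher and 48 lower, or 15.3% and 12.5%. Among all 15062 genes, 19% were called higher and 15.4% lower. Neither KM-H2 library stood apart, and without the 4 libraries 59 members were higher and 44 lower (17.9% and 14.7% of all genes). Under quantile normalization 47 were higher and 86 lower (17.1% and 18.2% of all genes), so that 35.3% of the calls were higher instead of 55.1%, and the balance of directions rests on the scaling.

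MNX1-AS1 is next to a homeobox transcription factor gene. MNX1-AS1 was at 21.8 and 11.6 FPKM in KM-H2, 7.10 and 4.82 in L1236, 3.21 and 4.40 in L428, and 0 in every library of Namalwa, Reh and Reh+PMA. All 6 HRS libraries were thus above all 6 others, with KM-H2 highest. The log2 change was 5.04 in KM-H2 (SE 0.27, adjusted p = 1.1e-06). In L1236 it was 3.67 (SE 0.27, adjusted p = 7.0e-06), and 3.93 without the 4 libraries (adjusted p = 0.0029). In L428 it was 3.09 (SE 0.27, adjusted p = 2.2e-05), and 2.89 without them (adjusted p = 0.0071). MNX1 moved alongside, with a log2 change of 4.30 in KM-H2 (SE 0.22, adjusted p = 8.3e-07).

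MNX1-AS1 and MNX1 start 194 bases apart in RefSeq and run away from each other, so their promoter windows, 250 bases before to 50 after the start, share 293 bases. GATA3-AS1 and GATA3, described with L428, start 157 bases apart and share 256 bases of their windows. Both windows are shown because each shares bases with that of its sense gene, in a pair whose genes were higher in HRS lines. GATA3-AS1 was not called in L1236, however. Whether a window serves both genes was not tested. Coordinates are those of GRCh38.p14, with the MNX1-AS1 window at chr7:157010607-157010906 on the plus strand and the GATA3-AS1 window at chr10:8053435-8053734 on the minus strand. Capitals mark GGGCGG, the GC box, or its complement on the other strand, with 4 matches in the first window and 5 in the second.
MNX1-AS1: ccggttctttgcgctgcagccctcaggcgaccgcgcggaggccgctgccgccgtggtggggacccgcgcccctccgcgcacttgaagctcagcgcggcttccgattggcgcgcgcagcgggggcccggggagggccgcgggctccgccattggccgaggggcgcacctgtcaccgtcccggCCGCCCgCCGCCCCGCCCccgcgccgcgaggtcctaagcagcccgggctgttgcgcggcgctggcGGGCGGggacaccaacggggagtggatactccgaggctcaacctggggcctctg
GATA3-AS1: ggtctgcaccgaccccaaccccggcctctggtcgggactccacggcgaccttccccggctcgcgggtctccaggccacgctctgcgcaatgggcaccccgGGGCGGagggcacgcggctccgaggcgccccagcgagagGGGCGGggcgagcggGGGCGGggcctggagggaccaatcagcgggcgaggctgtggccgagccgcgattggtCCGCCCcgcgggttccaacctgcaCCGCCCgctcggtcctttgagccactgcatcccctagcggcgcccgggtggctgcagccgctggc

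The GC box was found in 146 of the 274 RefSeq windows of 233 members, or 53.28%, and in 44.95% of all 35116 windows. TGANTCA, the AP-1 motif, was in 4.38% of the members' windows and 7.71% of all. CACGTG, the E-box, was in 8.76% and 7.26%, and TATAAA in 6.57% and 11.53%. All motifs were searched on both strands. A match describes the letters of a window and was not tested as a binding site.

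ST8SIA6-AS1, already seen in KM-H2 alone, had a log2 change of 4.50 (SE 0.14, adjusted p = 8.4e-08). AFAP1-AS1 overlaps the gene of an actin filament-associated protein. AFAP1-AS1 was at 17.8 and 9.93 FPKM in KM-H2 and at 0.307 or less in the other 10 libraries, a log2 change of 4.50 (SE 0.24, adjusted p = 8.5e-07). CCDC144NL-AS1 was at 14.3 and 4.91 in KM-H2, 0.399 and 0.721 in L428 and 0 elsewhere, a log2 change of 4.16 in KM-H2 (SE 0.34, adjusted p = 1.2e-05). In these 3 genes KM-H2 did not overlap with any other condition, but all 3 had passed the threshold through KM-H2 alone.

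IL21-AS1 overlaps the 5′ end of the gene of the cytokine interleukin 21. IL21-AS1 was at 6.28 and 7.31 FPKM in KM-H2 and at 0.0408 or less in all others, and IL21 at 1.19 and 1.24 in KM-H2 and at 0 elsewhere. The cytokine gene and its antisense gene were thus listed in the same line. IL21-AS1 had a log2 change of 3.86 (SE 0.13, adjusted p = 1.2e-07) and IL21 one of 1.78 (SE 0.12, adjusted p = 3.1e-06).

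Among the members lower in KM-H2, TP73-AS1 is named after TP73, a relative of the p53 gene. TP73-AS1 was at 0 and 0 FPKM in KM-H2, 0.115 and 0.0140 in L1236, 0 and 0 in L428, 1.36 and 1.32 in Namalwa, 7.28 and 6.25 in Reh, and 5.92 and 6.97 in Reh+PMA. The HRS lines were all below the control lines without overlap. The log2 change was -2.87 in KM-H2 (SE 0.17, adjusted p = 1.8e-06). In L1236 it was -2.70 (SE 0.17, adjusted p = 2.4e-06), and -2.57 without the 4 libraries (adjusted p = 0.00062). In L428 it was -2.87 (SE 0.17, adjusted p = 1.9e-06), and -2.87 without them (adjusted p = 0.00061).

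CARD8-AS1 overlaps the 5′ end of CARD8, a gene of inflammasome signalling. CARD8-AS1 was at 0.738 and 0.482 FPKM in KM-H2, 5.54 and 10.9 in L1236, 3.66 and 6.36 in L428, 3.47 and 5.70 in Namalwa, 8.54 and 8.83 in Reh, and 18.2 and 21.0 in Reh+PMA. KM-H2 was below every other library, with a log2 change of -2.61 (SE 0.32, adjusted p = 0.00017). CARD8 was also lower in KM-H2, by a log2 change of -1.74 (SE 0.21, adjusted p = 0.00013). MYLK-AS1, which overlaps the myosin light chain kinase gene, was at 0 in both KM-H2 libraries, at 1.52 to 2.47 in untreated Reh and Namalwa, and at 0.836 to 1.62 elsewhere. KM-H2 was the only line without it, with a log2 change of -2.35 (SE 0.24, adjusted p = 4.9e-05).

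CBR3-AS1, around the gene of a carbonyl reductase, depended on the choice of control. CBR3-AS1 was at 11.7 and 12.3 FPKM in Reh, 0.489 and 2.91 in Reh+PMA, 0.663 and 0.717 in L1236, and 0 in KM-H2, L428 and Namalwa. Reh alone was high, and Namalwa was like KM-H2. The log2 change in KM-H2 was -2.32 (SE 0.39, adjusted p = 0.0012) and 0 with Namalwa as the only control. STARD4-AS1 was also among the 5 lowest in KM-H2 and is described with its sense gene.

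In L1236, the 5 members with the largest log2 changes above the controls were RMDN2-AS1, MLK7-AS1, PTPRG-AS1, CYP1B1-AS1 and MNX1-AS1. Called higher were 55 members and lower 44, or 14.3% and 11.4% of 385. Among all 15062 genes, 17.4% were called higher and 15.2% lower. L1236 library 1 stood apart: without the 4 libraries 47 members were higher and 27 lower (14.2% and 11.7% of all genes), and with that library alone left out 29 were lower. Under quantile normalization 42 were higher and 67 lower (16.1% and 17.2% of all genes), with 38.5% of the calls higher instead of 55.6%.

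RMDN2-AS1 was at 14.0 and 15.6 FPKM in L1236, 1.22 and 2.34 in L428, 0.751 and 0 in KM-H2, and 0 in the control lines and Reh+PMA. L1236 was above all others, and its duplicates, of different kinds, were close. The change in L1236 was 4.93 (SE 0.34, adjusted p = 4.3e-06), and 4.86 without the 4 libraries (adjusted p = 0.0038). MLK7-AS1, named after a mixed-lineage kinase gene, was at 18.3 and 21.2 in L1236, 5.24 and 6.82 in L428, and 0.647 or less elsewhere. Its log2 change in L1236 was 4.38 (SE 0.21, adjusted p = 4.6e-07), and 4.28 without them (adjusted p = 0.00069).

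PTPRG-AS1 overlaps the gene of a receptor-type tyrosine phosphatase. PTPRG-AS1 was at 12.3 and 14.8 FPKM in L1236, 3.62 and 1.94 in KM-H2, 0.242 and 0 in L428, 1.32 and 1.06 in Namalwa, 0.338 and 0.0830 in Reh, and 0 in Reh+PMA. L1236 was highest, with no overlap. The log2 change there was 3.69 (SE 0.28, adjusted p = 7.3e-06), and 3.56 without the 4 libraries (adjusted p = 0.0043). CYP1B1-AS1, which overlaps a cytochrome P450 gene, was at 4.92 and 7.09 in L1236, 0.218 to 0.553 in KM-H2 and L428, and 0 elsewhere. Its log2 change in L1236 was 3.68 (SE 0.21, adjusted p = 1.1e-06), and 3.44 without them (adjusted p = 0.00071). CYP1B1 differed in pattern, at 52.7 and 13.0 FPKM in KM-H2 and 32.8 and 26.6 in L1236.

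Among the members lower in L1236, MID1IP1-AS1 lies within MID1IP1, a gene of lipid synthesis. MID1IP1-AS1 was at 0 in L1236 and L428, 1.52 and 0.630 FPKM in KM-H2, 8.80 and 6.74 in Namalwa, 4.89 and 4.11 in Reh, and 0 and 0.473 in Reh+PMA. Controls were above HRS lines without overlap. The log2 change was -3.68 in L1236 (SE 0.31, adjusted p = 1.6e-05) and the same without the 4 libraries (adjusted p = 0.0041). In L428 it was -3.68 as well (SE 0.31, adjusted p = 1.8e-05, and 0.0043 without them). All exons of MID1IP1-AS1 lie opposite exons, and MID1IP1 itself had a log2 change of -6.92 in L1236 (SE 0.27, adjusted p = 1.7e-07).

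PRKCQ-AS1 starts next to the gene of protein kinase C theta and does not overlap it. PRKCQ-AS1 was at 0.164 and 0.147 FPKM in L1236, 2.07 and 3.12 in L428, 3.85 and 2.98 in KM-H2, 3.89 and 5.86 in Namalwa, 7.38 and 8.39 in Reh, and 1.52 and 2.70 in Reh+PMA. L1236 was below all others. Its log2 change there was -3.34 (SE 0.27, adjusted p = 1.1e-05), and -3.32 without the 4 libraries (adjusted p = 0.0028). PRKCQ, listed at 0 in L1236, had a log2 change of -2.48 (SE 0.30, adjusted p = 0.00015). PRKCQ was at 10.9 and 10.5 FPKM in Reh but at 0.163 and 0.223 in Namalwa, so its change rests on Reh.

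SMAD1-AS1 lies within SMAD1, a gene of bone morphogenetic protein signalling. SMAD1-AS1 was at 3.53 and 0 FPKM in L1236, 5.82 and 0 in L428, 2.52 and 3.47 in KM-H2, 33.3 and 24.9 in Namalwa, 10.7 and 8.26 in Reh, and 0.156 and 0 in Reh+PMA. Even the higher L1236 and L428 libraries were below the controls, while the zeros were in libraries set apart. The log2 change in L1236 was -3.59 (SE 1.00, adjusted p = 0.017), and -2.08 without the 4 libraries (adjusted p = 0.010). With only L1236 library 1 left out it was -2.08 as well but not called (adjusted p = 0.20). The call of SMAD1-AS1 in L1236 thus depends on how the other libraries are treated. In L428 it was -3.26 (SE 1.00, adjusted p = 0.025), and -1.43 without the 4 (adjusted p = 0.028). With only L428 library 1 left out it was not called (adjusted p = 0.28), and 7 of the settings tried ended this call, so SMAD1-AS1 in L428 is uncertain.

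SMARCA5-AS1, whose values split by kind of library, had a log2 change of -3.03 in L1236 (SE 1.03, adjusted p = 0.040). Without the 4 libraries it was -1.1 (adjusted p = 0.038). In L428 the change was -3.41 (SE 1.03, adjusted p = 0.024), and -1.91 without them (adjusted p = 0.0089). The size of both changes thus depended on libraries that stood apart. With only library 1 of the line left out, SMARCA5-AS1 was not called in L1236 (adjusted p = 0.43) or in L428 (adjusted p = 0.25). Of the settings tried, 13 ended the call in L1236 and 5 in L428, so both are uncertain.

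In L428, the 5 members with the largest log2 changes above the controls were DIAPH2-AS1, BHLHE40-AS1, MSC-AS1, GATA3-AS1 and SPATA3-AS1. Called higher were 73 members and lower 48, or 19.0% and 12.5% of 385. Among all 15062 genes, 18.1% were called higher and 15.8% lower. Without the 4 libraries, of which L428 library 1 is one, 60 members were higher and 27 lower (14% and 11.4% of all genes). Under quantile normalization 62 were higher and 69 lower (16.6% and 17.5% of all genes), with 47.3% of the calls higher instead of 60.3%.

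DIAPH2-AS1 overlaps DIAPH2, a gene of a formin that builds actin filaments. DIAPH2-AS1 was at 32.9 and 110 FPKM in L428 and at 0.583 or less in the other 10 libraries. L428 alone expressed it, with duplicates that differed over 3-fold. The log2 change was 6.84 (SE 0.41, adjusted p = 2.0e-06), and 5.98 without the 4 libraries (adjusted p = 0.00019). DIAPH2 was at 19.0 and 21.6 in L428 and 14.5 and 19.9 in Namalwa, so the sense gene was not restricted to L428.

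BHLHE40-AS1 overlaps the 5′ end of BHLHE40, a basic helix-loop-helix transcription factor gene. BHLHE40-AS1 was at 11.2 and 13.7 FPKM in L428, 1.55 and 4.91 in L1236, 0.129 and 1.44 in KM-H2, and 0.0316 or less elsewhere. BHLHE40 was at 113 and 109 in L428, 88.6 and 88.7 in L1236, 18.1 and 17.8 in KM-H2, and 9.31 or less elsewhere. Both genes were thus above all control libraries in the HRS lines, highest in L428. BHLHE40-AS1 had a log2 change of 4.69 in L428 (SE 0.47, adjusted p = 4.9e-05), and 4.55 without the 4 libraries (adjusted p = 0.0087). BHLHE40 had one of 6.54 (SE 0.32, adjusted p = 7.2e-07).

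MSC-AS1 spans MSC, the gene of the transcriptional repressor musculin. MSC-AS1 was at 10.2 and 8.57 FPKM in L428, 6.29 and 4.28 in KM-H2, 0.669 and 0.681 in L1236, and 0.0303 or less elsewhere. MSC was at 101 and 101 in L428, 33.1 and 21.5 in KM-H2, 16.9 and 20.1 in L1236, and 0 in all libraries of Namalwa, Reh and Reh+PMA. MSC and MSC-AS1 were present in each HRS line and nearly absent elsewhere. The log2 change of MSC-AS1 was 4.30 in L428 (SE 0.19, adjusted p = 3.8e-07), and 4.41 without the 4 libraries (adjusted p = 0.00071).

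GATA3-AS1, whose window was printed above, is named after the gene of a T-cell transcription factor. GATA3-AS1 was at 7.42 and 7.10 FPKM in L428, 2.99 and 1.55 in KM-H2, 0.589 and 0.391 in L1236, and 0 elsewhere. GATA3 was at 25.2 and 28.4 in L428, 9.58 and 3.54 in KM-H2, 25.7 and 10.3 in L1236, and 0.232 or less elsewhere. The pair was listed in the HRS lines, but L1236 had much GATA3 and little GATA3-AS1. For GATA3-AS1 in L428 the log2 change was 3.96 (SE 0.22, adjusted p = 1.3e-06), and 3.99 without the 4 libraries (adjusted p = 0.0018).

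SPATA3-AS1 was at 18.8 and 2.49 FPKM in L428, 2.93 and 1.36 in KM-H2, and 0.0496 or less elsewhere. Its L428 duplicates differed over 7-fold. Its log2 change there was 3.90 (SE 0.60, adjusted p = 0.00068), and 5.25 without the 4 libraries (adjusted p = 0.0013). Among the members lower in L428, LEF1-AS1 overlaps the 5′ end of LEF1, a transcription factor gene of Wnt signalling and early lymphocytes. LEF1-AS1 was at 0.995 and 0.341 in L428, 3.77 and 0.195 in L1236, 12 and 4.63 in KM-H2, 7.10 and 5.32 in Namalwa, 27.2 and 21.3 in Reh, and 1.03 and 1.40 in Reh+PMA. L428 was below both control lines, as was LEF1. For LEF1-AS1 the log2 change was -3.51 (SE 0.66, adjusted p = 0.0021), and -3.10 without the 4 libraries (adjusted p = 0.018).

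LRRC75A-AS1, the most highly expressed member, was also called in L428. Its log2 change there was 1.85 (SE 0.25, adjusted p = 0.00034), and 1.76 without the 4 libraries (adjusted p = 0.0093). PITPNA-AS1 had a log2 change of 1.69 in L428 (SE 0.30, adjusted p = 0.0016), and 1.22 without them (adjusted p = 0.076). With only L428 library 1 left out, the change of PITPNA-AS1 was 1.22 as well and was still called (adjusted p = 0.020).

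With the cell line as the unit, 3 HRS lines against 2 control lines, no member was called: 0 higher and 0 lower of 385. Among all 15062 genes, 0.312% were called higher and 0.166% lower. Before adjustment, 15 members had p below 0.05 on the higher side and 11 on the lower. MNX1-AS1 and TP73-AS1 separated all HRS from all control libraries but were not called. Counted over 10 libraries, with spread between duplicates in place of spread between lines, 55 members were higher and 40 lower (16.9% and 12.9% of all genes). A fit of the same kind with a term for kind of library, described with PMA, gave 59 higher and 40 lower (16.8% and 12.7% of all genes).

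After PMA, most members that changed in Reh were listed lower, and 2 members, ITGB2-AS1 and KCNJ2-AS1, were far higher. Called higher were 16 members and lower 91, or 4.16% and 23.6% of 385. Among all 15062 genes, 11.2% were called higher and 13.5% lower. The median log2 change was -0.65 over members and -0.03 over all genes. Both Reh+PMA libraries stood apart and no untreated Reh library did. A further fit therefore held a term for kind of library, estimated from the duplicates of L1236 and L428. With that term 13 members were higher and 58 lower, of which 7 and 51 were called without it as well. These are 3.38% and 15.1% of the members, against 8.6% and 9.71% of all genes in the same fit.

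Among the 91 lower members, 12 were at least 2-fold lower in the set-apart library of both L1236 and L428, and 1 of these 12 was still called with the term. Of the other 79, 50 were still called. These 79 lacked a 2-fold drop in 1 or both lines, so by this choice the term tends to move them less. Members at 0 in both L1236 and L428 cannot be moved by it at all. The 50 kept calls are therefore no check on the kind of library. The counts also moved when 1 library was left out. Higher members numbered 8 without Reh library 0, 7 without Reh library 1, 9 without Reh+PMA library 0 and 10 without Reh+PMA library 1. Lower members numbered 43, 56, 37 and 64 in the same order.

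**Figure D3:**
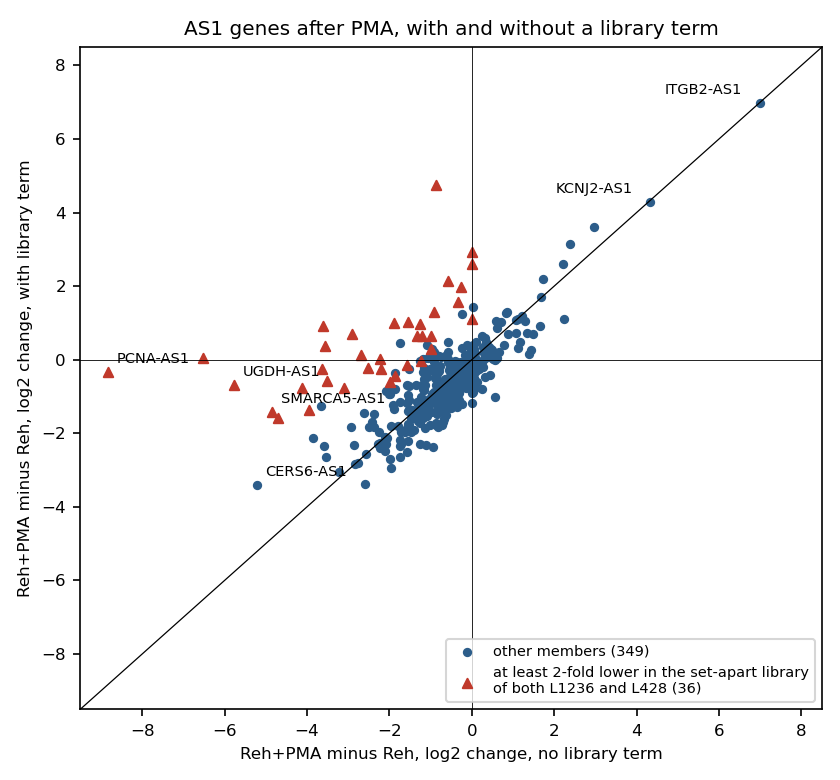
Log2 change of 385 AS1 genes between Reh+PMA and Reh, without (horizontal) and with (vertical) a term for kind of library, 1 point a gene. Red triangles are 36 genes at least 2-fold lower in the set-apart library of both L1236 and L428: PCNA-AS1 went from -8.82 to -0.33. ITGB2-AS1 stayed at 6.98, but the term could not move it, since it was at 0 in L1236 and L428.

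ITGB2-AS1 lies within ITGB2, the gene of the beta-2 integrin chain of leukocytes. ITGB2-AS1 was at 64.8 and 94.7 FPKM in Reh+PMA, 0.147 and 0.0996 in Reh, 0.634 and 1.99 in KM-H2, and 0 in L1236, L428 and Namalwa. ITGB2 was at 574 and 470 in Reh+PMA, 6.85 and 4.46 in Reh, 22.6 and 30.5 in KM-H2, and 3.22 or less elsewhere. Integrin gene and antisense gene were far above all other libraries after PMA. ITGB2-AS1 rose by 6.98 on the log2 scale (SE 0.35, adjusted p = 4.6e-06), and 6.98 with the term (adjusted p = 0.00018). The term could not move this value, since it is estimated from L1236 and L428, where ITGB2-AS1 was at 0. The unchanged 6.98 is therefore no check on the kind of library. ITGB2 rose by 6.43 (SE 0.25, adjusted p = 2.0e-06).

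KCNJ2-AS1 overlaps the 5′ end of KCNJ2, the gene of an inward-rectifier potassium channel. KCNJ2-AS1 was at 16.7 and 8.84 FPKM in Reh+PMA and 0.180 and 0.0914 in Reh, with 1.05 as its highest value elsewhere. KCNJ2 was at 284 and 227 in Reh+PMA and 2.31 and 2.61 in Reh. Channel gene and antisense gene rose together after PMA. KCNJ2-AS1 rose by 4.32 on the log2 scale (SE 0.37, adjusted p = 8.5e-05), and 4.29 with the term (adjusted p = 0.0023). KCNJ2 rose by 6.43 (SE 0.39, adjusted p = 1.3e-05).

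FUT8-AS1 lies within FUT8, the gene of the core fucosyltransferase. FUT8-AS1 was at 11.5 and 5.09 FPKM in Reh+PMA, 0.551 and 0.561 in Reh, and 2.14 or less elsewhere. Reh+PMA was thus above all others. After PMA its log2 change was 2.96 (SE 0.40, adjusted p = 0.00089), and 3.60 with the term (adjusted p = 0.0031). TSPEAR-AS1 was at 2.34 and 4.63 in Reh+PMA, 0.257 and 0.218 in Reh, and 1.02 or less elsewhere. Its log2 change was 2.37 (SE 0.43, adjusted p = 0.0039), and 3.15 with the term (adjusted p = 0.0057).

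EPB41L4A-AS1, the snoRNA host, had a log2 change of 2.25 after PMA (SE 0.52, adjusted p = 0.012). With the term its change was 1.11 (adjusted p = 0.18), so the call was lost. PMA and kind of library cannot be told apart for this gene, which was also higher in library 1 than in library 0 of L428.

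Among the members lower after PMA, CERS6-AS1 overlaps the end of a ceramide synthase gene. CERS6-AS1 was at 19.3 and 20.2 FPKM in Reh, 0.0239 and 0.0676 in Reh+PMA, 6.71 and 0.0821 in L428, and 0.319 or less elsewhere. CERS6 was at 18 and 18.8 in Reh, 26.2 and 27.4 in Reh+PMA, and 6.17 and 14.2 in L428. The sense gene was present in Reh+PMA, where its antisense gene was near 0, but L428 library 1, also set apart, showed the same. The log2 change of CERS6-AS1 was -5.22 (SE 0.89, adjusted p = 0.0029), and -3.40 with the term (adjusted p = 0.041). Library 1 differed from library 0 by -3.63 on the log2 scale in L428 and by 0 in L1236. CERS6-AS1 was at 0.319 FPKM or less in L1236, so that line could not inform the term. The call kept with the term is therefore no check on the kind of library.

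PCNA-AS1 had a log2 change of -8.82 after PMA (SE 2.92, adjusted p = 0.048), and -0.33 with the term (adjusted p = 0.85). UGDH-AS1 had one of -5.76 (SE 1.87, adjusted p = 0.044), and -0.69 with the term (adjusted p = 0.72). SMARCA5-AS1 had one of -4.84 (SE 1.19, adjusted p = 0.015), and -1.43 with the term (adjusted p = 0.076). None of these 3 calls was kept with the term, and no effect of PMA is read from them. PCNA itself fell after PMA, with a log2 change of -1.87 (SE 0.36, adjusted p = 0.0051), and -1.91 with the term (adjusted p = 0.039). ZNF32-AS1, within a zinc finger gene, was at 9.83 and 16.0 FPKM in Reh and at 0 in all 4 libraries set apart. ZNF32-AS1 had a log2 change of -4.71 (SE 1.1, adjusted p = 0.011), and -1.60 with the term (adjusted p = 0.020). Library 1 differed from library 0 by -3.30 in L1236 and by -2.92 in L428, and at 0 it could fall no further. The kept call is therefore no check on the kind of library, and no effect of PMA is read from it.

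The sense gene was in the table for 380 members and was tested for 356. Levels per length can be set side by side. The antisense gene had the higher FPKM in 72 of 380 pairs in KM-H2, 73 in L1236, 76 in L428, 80 in Namalwa, 82 in Reh and 65 in Reh+PMA. Most members thus lay below their sense gene in each condition. Without the 4 libraries the number was 74 in L1236 and 80 in L428. The antisense gene was higher in every condition for 26 pairs, and in at least 1 for 142.

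Antisense and sense levels tended to move together over the 6 conditions. The median Pearson correlation over 380 pairs was 0.46 and the median Spearman correlation 0.43. The correlation was above 0 for 287 pairs, at least 0.8 for 81 and at most -0.8 for 3. Each value rests on 6 condition means of which Reh and Reh+PMA come from 1 line, and on reads that may be shared where genes overlap. The median was 0.59 without Reh+PMA and 0.62 without the 4 libraries. STARD4-AS1, at -0.91, was among the 3 pairs at or below -0.8.

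By position in GENCODE, 122 members overlapped their sense gene at the 5′ ends, with a median correlation of 0.56. Another 68 lay within the sense gene (median 0.52) and 67 overlapped it at the 3′ ends (median 0.37). The 19 placed as divergent without overlap had a median of 0.47, and the 18 that contained the sense gene one of 0.48. SRGAP2-AS1, counted among the 19, starts 85375534 bases from SRGAP2 and is not its neighbour. The median of 0.47 is the correlation of SRGAP2-AS1 itself. No position was found for 85 symbols, PCNA-AS1, FBXO22-AS1 and LRRC75A-AS1 among them. The 82 of these with a correlation had a median of 0.34. Positive correlations were thus seen in pairs that share no exon as well as in pairs that overlap.

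**Figure D4:**
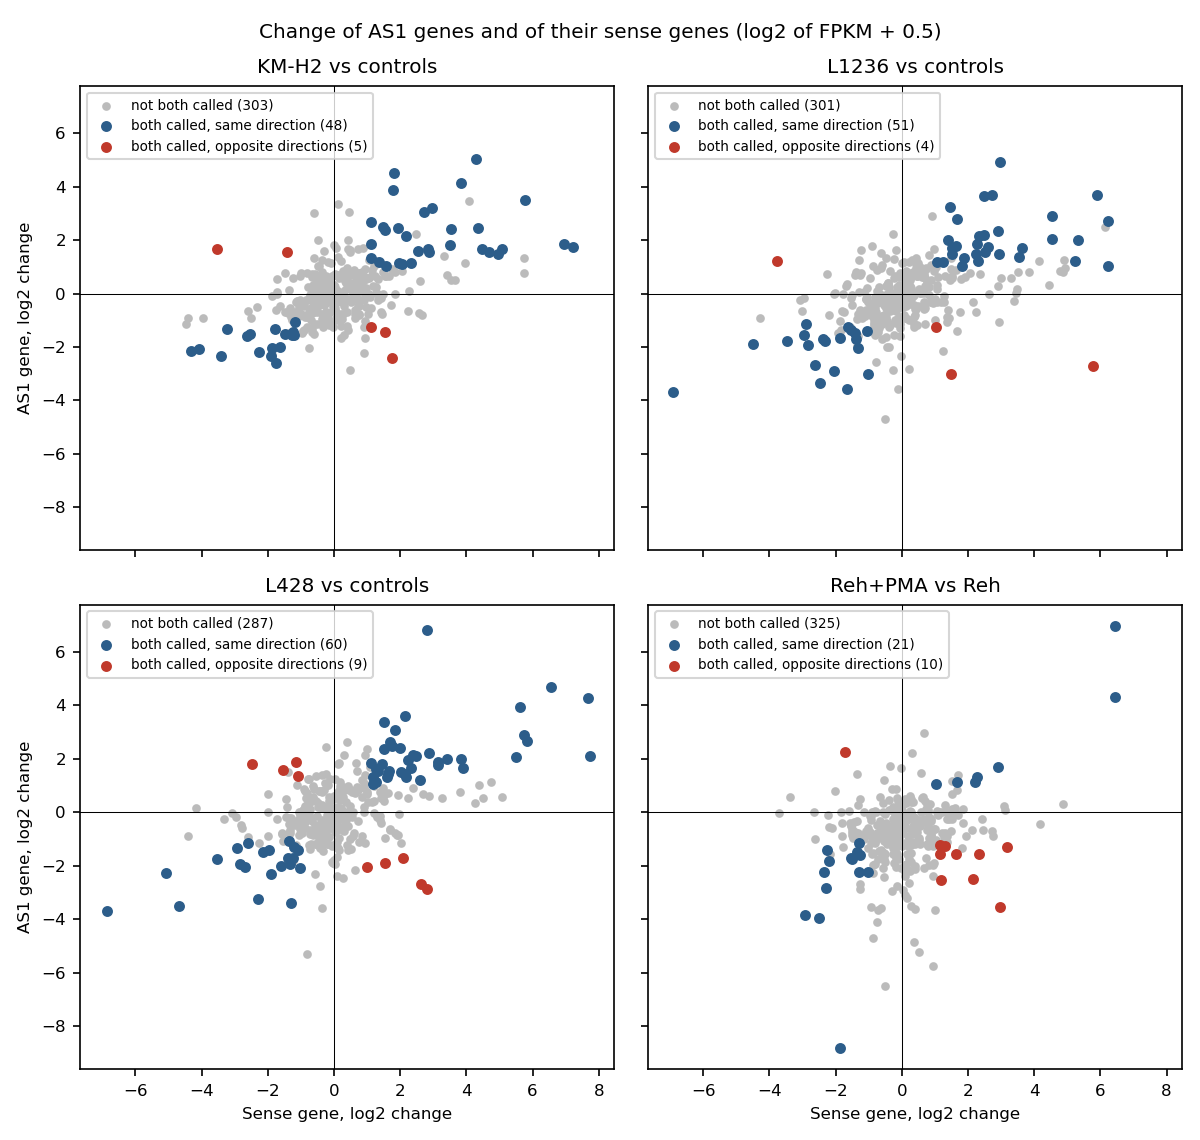
Log2 change of the sense gene (horizontal) and the AS1 gene (vertical) for 356 pairs in 4 comparisons, 1 point a pair, with pairs called in the same direction in blue and in opposite directions in red. Pairs called in the same direction numbered 48 in KM-H2, 51 in L1236, 60 in L428 and 21 in Reh+PMA, against 5, 4, 9 and 10 in opposite directions.

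The scatter of paired changes shows more pairs moving alike than apart in each HRS line. In KM-H2, 31 pairs were both higher and 17 both lower, while the sense gene was not called for 46 called members. In L1236, 31 were both higher and 20 both lower, with 37 called without the sense gene. In L428, 39 were both higher and 21 both lower, with 42 called without it. After PMA, 7 were both higher and 14 both lower, and 72 members were called without their sense gene. Over all 356 tested sense genes, 73 were called higher and 50 lower in KM-H2, 76 and 59 in L1236, 79 and 58 in L428, and 54 and 45 after PMA. The pair counts are descriptions without a test.

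STARD4-AS1 was the only member called against its sense gene in all 4 comparisons. STARD4 encodes a cholesterol transfer protein. STARD4-AS1 was at 0.494 and 0.555 FPKM in KM-H2, 0.278 and 0.0741 in L1236, 0.873 and 0.0277 in L428, 4.05 and 3.88 in Namalwa, 6.76 and 5.52 in Reh, and 0.109 and 0.0229 in Reh+PMA. STARD4 was at 34.3 and 40.2 in KM-H2, 27.3 and 34.1 in L1236, 61.5 and 76.3 in L428, 11.6 and 14.4 in Namalwa, 9.64 and 7.71 in Reh, and 106 and 47.0 in Reh+PMA. Where the antisense gene was high, in Namalwa and Reh, the sense gene was low, with no overlap between these 4 libraries and the other 8 for either gene.

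The log2 change of STARD4-AS1 was -2.41 in KM-H2 (SE 0.34, adjusted p = 0.00040), against 1.77 for STARD4 (SE 0.30, adjusted p = 0.0012). In L1236 it was -3.02 (SE 0.34, adjusted p = 0.00010), and -2.80 without the 4 libraries (adjusted p = 0.0013), against 1.49 for STARD4 (SE 0.30, adjusted p = 0.0034). In L428 it was -2.67 (SE 0.34, adjusted p = 0.00022), and -1.98 without them (adjusted p = 0.0036), against 2.64 for STARD4 (SE 0.30, adjusted p = 0.00011). After PMA STARD4-AS1 fell by 3.55 on the log2 scale (SE 0.39, adjusted p = 0.00034), while STARD4 rose by 2.96 (SE 0.35, adjusted p = 0.00046). With the library term the PMA changes were -2.64 (adjusted p = 0.0031) and 2.65 (adjusted p = 0.0098). The opposite directions were therefore kept in every comparison with the libraries set apart taken into account.

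The promoter windows of STARD4-AS1 and STARD4 are shown because the pair moved in opposite directions. Their nearest RefSeq starts lie 309 bases apart and the transcripts overlap. In GRCh38.p14 the windows are chr5:111511976-111512275 on the plus strand and chr5:111512486-111512785 on the minus strand, with 2 GC boxes and 1. Capitals again mark GGGCGG or its complement.
STARD4-AS1: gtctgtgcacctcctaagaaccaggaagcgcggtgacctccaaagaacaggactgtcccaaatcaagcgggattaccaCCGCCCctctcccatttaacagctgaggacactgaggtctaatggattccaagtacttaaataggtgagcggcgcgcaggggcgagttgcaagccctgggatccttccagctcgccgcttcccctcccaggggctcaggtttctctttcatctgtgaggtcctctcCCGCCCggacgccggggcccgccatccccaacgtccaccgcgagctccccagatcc
STARD4: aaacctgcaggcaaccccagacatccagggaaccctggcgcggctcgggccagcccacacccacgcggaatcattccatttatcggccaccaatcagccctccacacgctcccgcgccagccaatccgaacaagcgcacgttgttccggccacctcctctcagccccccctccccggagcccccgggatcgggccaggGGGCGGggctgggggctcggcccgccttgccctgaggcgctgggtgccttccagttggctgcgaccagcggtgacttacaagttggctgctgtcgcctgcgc

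TP73-AS1, low in the HRS lines, was called against TP73 in L1236 and L428. TP73 was at 40.5 and 30.8 FPKM in L1236, 3.78 and 4.36 in L428, 0.638 and 0.228 in KM-H2, and 0.223 or less elsewhere. L1236 had by far the most TP73 and nearly no TP73-AS1, and KM-H2 had little of either. The log2 change of TP73 was 5.79 in L1236 (SE 0.22, adjusted p = 1.7e-07), and 5.98 without the 4 libraries (adjusted p = 0.00046). In L428 it was 2.81 (SE 0.22, adjusted p = 1.2e-05), and 2.72 without them (adjusted p = 0.0041).

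Other pairs were called in opposite directions in KM-H2. IGFBP7-AS1, named after a secreted growth factor-binding protein gene, had a log2 change of 1.69 (adjusted p = 7.9e-05), and IGFBP7 one of -3.54 (adjusted p = 1.9e-05). IGFBP7 was at 54.3 and 68.6 FPKM in Reh, but at 0.107 and 0 in Namalwa and 0 in KM-H2, so its lower call rests on Reh. PTPRG-AS1 had one of 1.54 (adjusted p = 0.0016), and PTPRG one of -1.42 (adjusted p = 0.00031). PTPRG was at 0.163 and 0.324 FPKM in KM-H2, 6.45 and 7.31 in Reh, and 0.0471 and 0.0178 in Namalwa, so KM-H2 was below Reh and above Namalwa. ATP2A1-AS1, named after a calcium pump gene, had one of -1.45 (adjusted p = 0.0044), against 1.53 for ATP2A1 (adjusted p = 0.0010). GLIS2-AS1, at 2.76 and 1.89 FPKM in Reh, 0 and 0.341 in Reh+PMA and 0 elsewhere, had one of -1.24 (adjusted p = 0.0014), against 1.1 for GLIS2 (adjusted p = 0.0070). GLIS2-AS1 had passed the threshold through Reh alone and was at 0 in Namalwa as in KM-H2. Its lower call therefore rests on Reh and was fixed by the selection. All 4 pairs were still opposite with the library term.

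In L1236, LY86-AS1, at 0.983 and 2.66 FPKM there and 1.10 and 1.38 in Namalwa, had a log2 change of 1.22 (adjusted p = 0.0047), against -3.77 for LY86 (adjusted p = 8.2e-05). TCEB3-AS1, named after an elongin gene, had one of -1.24 (adjusted p = 0.030), against 1.02 for TCEB3 (adjusted p = 0.0018). With the library term the change of LY86-AS1 was 0.94, just below the minimum of 1, and LY86 was still lower. TCEB3-AS1 had -0.71 with the term and TCEB3 0.94, neither of them called. With only L1236 library 1 left out, LY86-AS1 had 0.67 (adjusted p = 0.0082) and TCEB3-AS1 -0.39 (adjusted p = 0.27), so neither antisense call was kept.

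CD27-AS1, which overlaps a receptor gene of the tumour necrosis factor receptor family, split the HRS lines. CD27-AS1 was at 6.06 and 10.3 FPKM in L428, 6.04 and 6.42 in L1236, 0.603 and 0.316 in KM-H2, 0.976 and 0.581 in Namalwa, 3.91 and 4.07 in Reh, and 1.21 and 1.76 in Reh+PMA. CD27 was at 23.6 and 38.0 in Namalwa, 17.6 and 9.55 in L1236, and 0.634 or less elsewhere. L1236 had both genes, L428 only the antisense gene and Namalwa mostly the sense gene. In L428 the log2 change of CD27-AS1 was 1.82 (SE 0.27, adjusted p = 0.00052), and 1.46 without the 4 libraries (adjusted p = 0.024), against -2.47 for CD27 (SE 0.33, adjusted p = 0.00027). CD27 was near 0 in Reh as in L428, so its lower call rests on Namalwa.

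Further opposite pairs in L428 were near or below a log2 change of 2 on the antisense side. H1FX-AS1, named after a linker histone gene, had one of -1.70 (adjusted p = 0.0027), against 2.10 for H1FX (adjusted p = 0.00046). LCMT1-AS1, named after a carboxyl methyltransferase gene, had one of -1.90 (adjusted p = 0.0016), against 1.53 for LCMT1 (adjusted p = 0.014). MAFA-AS1, named after a transcription factor gene, had one of 1.58 (adjusted p = 0.0027), against -1.53 for MAFA (adjusted p = 0.0061). MAFA-AS1 had passed the threshold through L428 alone, so its higher level there was fixed by the selection. These 3 pairs were still opposite with the library term. IL10RB-AS1, named after a cytokine receptor gene, had one of -2.03 (adjusted p = 0.0099), against 1.00 for IL10RB (adjusted p = 0.0089). NOP14-AS1, named after a ribosome assembly gene, had one of 1.89 (adjusted p = 0.00058), against -1.15 for NOP14 (adjusted p = 0.010). TTC28-AS1 had one of 1.38 (adjusted p = 0.0060), against -1.09 for TTC28 (adjusted p = 0.0067). In these last 3 pairs the antisense gene was still called with the term, whereas the sense gene kept its direction below the minimum of 1, at 0.69 for IL10RB, -0.95 for NOP14 and -0.85 for TTC28. IL10RB-AS1 was not called with only L428 library 1 left out (adjusted p = 0.061).

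After PMA, PXN-AS1, which overlaps the gene of the focal adhesion protein paxillin, fell from 6.24 and 7.25 FPKM to 2.88 and 2.09, while PXN rose from 6.43 and 4.33 to 65.6 and 40.2. The log2 changes were -1.29 (SE 0.25, adjusted p = 0.0050) and 3.16 (SE 0.49, adjusted p = 0.0018). STARD4-AS1 and PXN-AS1 were the 2 of the 10 opposite pairs that were still opposite with the library term. For STARD4-AS1 this is no check on the kind of library, as described above. For the other 8 pairs at least 1 of the 2 calls was lost with the term, though all kept their directions.

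These 8 pairs were ARRDC3-AS1, EPB41L4A-AS1, LCMT1-AS1, MAFG-AS1, MAP3K14-AS1, MED4-AS1, PRKAG2-AS1 and RGMB-AS1 with their sense genes. Only EPB41L4A-AS1 was higher and its sense gene EPB41L4A lower, at -1.72 (adjusted p = 0.032), and at -0.61 with the term (adjusted p = 0.44). LCMT1-AS1 had a log2 change of -2.50 (adjusted p = 0.0018), against 2.16 for LCMT1 (adjusted p = 0.0097). With the term these were -1.84 (adjusted p = 0.029) and 2.18 (adjusted p = 0.067). RGMB-AS1 had one of -1.54 (adjusted p = 0.0090), against 2.33 for RGMB (adjusted p = 0.00099). RGMB-AS1 had passed the threshold through Reh alone, so its lower level in Reh+PMA was fixed by the selection. With the term RGMB-AS1 had -1.39 (adjusted p = 0.084) and RGMB 2.78 (adjusted p = 0.0044). MAP3K14-AS1 had -1.26 (adjusted p = 0.014) and -1.71 with the term (adjusted p = 0.019), while the call of MAP3K14 was lost, at 1.30 and 1.24. Why these calls were lost was not tested. MED4-AS1, within a Mediator subunit gene, was at 0 in L1236 library 1 and L428 library 1 and at 0.354 and 0 in Reh+PMA. MED4-AS1 went from -2.52 to -0.23 with the term (adjusted p = 0.80).

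Members were also counted in lists headed by a role of the sense gene. The lists are loose and hold genes outside their headings, such as CKMT2-AS1 of a mitochondrial creatine kinase gene in the cell cycle list and STX18-AS1, RASSF8-AS1 and TAPT1-AS1 in the immune list. Of 38 antisense genes on the immune and haematopoietic list, 21 were members. Called higher and lower were 5 and 6 of them in KM-H2, 3 and 5 in L1236, 5 and 5 in L428, and 2 and 6 after PMA. Examples with values above are the higher IL21-AS1, GATA3-AS1 and ITGB2-AS1 and the lower CARD8-AS1 and PRKCQ-AS1. No test of this or the next lists was made, and the shares of all members and of all genes called stand with each comparison.

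Of 17 on a list headed DNA replication, repair and the cell cycle, 11 were members. In this list 1 was higher and 1 lower in KM-H2, 2 and 2 in L1236, 2 and 2 in L428, and 0 and 5 after PMA, PCNA-AS1 among the last. Of 18 listed for RNA and translation, 9 were members, with 2 higher and 2 lower in KM-H2, 1 and 1 in L1236, 0 and 1 in L428, and 0 and 4 after PMA. Of 3 listed snoRNA hosts, 2 were members, LRRC75A-AS1, called higher in L428, and EPB41L4A-AS1, called higher after PMA and lower in L1236. Calls after PMA in these lists share the limit of the libraries set apart.

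Near the threshold, the 3 members just above 1 FPKM were KLHL6-AS1 at 1.01 in Namalwa, DPP9-AS1 at 1.01 in KM-H2 and PLCG1-AS1 at 1.02 in Namalwa. The 3 antisense genes just below were RNF139-AS1 at 0.995 in Namalwa, THOC7-AS1 at 0.991 in L1236 and B4GALT1-AS1 at 0.988 in L1236. These 6 differ by less than their duplicates do, so membership at the threshold is a matter of the rule.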

How the data were processed

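The FPKM values are those deposited by the authors, 1 table of 26210 gene symbols and 12 libraries. By the submitters' processing notes, reads were aligned to hg19 with TopHat2 2.0.11 and FPKM computed with Cuffnorm 2.2.1. Gene annotation and strand setting of the counting are not given in the sources used here. Sequencing depth was not used, since only FPKM was analysed. The table's library suffixes 0 and 1 do not name the replicate, so no pairing was used.

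Genes with a mean of at least 1 FPKM in at least 1 of 6 conditions (15062) were fitted as log2(FPKM + 0.5) with limma 3.58.1 in R 4.3.3, with trend, and 12 libraries sharing 1 estimate of spread. Each HRS line was contrasted with the mean of untreated Reh and Namalwa, and Reh+PMA with Reh. The comparison of HRS with control lines used 1 mean per line, 3 against 2. P-values were adjusted by Benjamini-Hochberg over all genes tested, and a call needed an adjusted p below 0.05 and a log2 change of at least 1.

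The strand check used pairs without antisense symbols or small RNAs, on opposite strands, with at least 50% of the exon length of 1 gene opposite exons of the other, and a partner at 5 FPKM or more in every library. Its overlap minimum was chosen after seeing the data, as were the fit without the 4 libraries and the fit with a term for kind of library. Positions are from GENCODE v44 lifted to GRCh37, promoter windows from RefSeq (GRCh38.p14), and the builds were not converted or compared.

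Named genes are the 10 members with the highest mean, up to 5 called higher and 5 lower in each comparison, pairs called in opposite directions, up to 10 members restricted to 1 condition, PCNA-AS1, threshold neighbours and role lists. A restricted member and a marker that these lists hold are not reported here. Members and lists were chosen with earlier results of these data known. Alternatives tried were other offsets, filters, normalization, thresholds, controls and libraries left out. Correlations are descriptions without a test.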

Additional observations from a re-analysis of the deposited data

Results flagged for a closer look

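10 differences between HRS lines are listed because a member was called higher than the controls in 1 line and lower in another. Calls of opposite direction against shared controls, each with a log2 change of at least 1, make a difference of at least 2 certain, so the differences are descriptions and no p is given. Of the 9 genes, some are weak, and no explanation was tested. With only library 1 of the line left out, EMC3-AS1 was not called in L1236 (log2 change 1.20). CELF2-AS1 was likewise not called in L428 (log2 change -1.17).

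CD27-AS1, at 0.603 and 0.316 FPKM in KM-H2, differed by -2.83 on the log2 scale between KM-H2 and L1236, and by -2.78 without the 4 libraries set apart. Between KM-H2 and L428, CD27-AS1 differed by -3.15, and by -2.79 without them.

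CDKN2B-AS1, in the region of cell cycle inhibitor genes, was at 0 and 0.0707 FPKM in KM-H2 and 6.61 and 4.21 in L1236. KM-H2 minus L1236 was -3.44, and -3.73 without the 4 libraries. USP46-AS1 was at 1.13 and 0.238 in KM-H2 and 12.2 and 15.6 in L1236, a difference of -3.71, and -3.53 without them. EMC3-AS1 was at 2.45 and 0.887 in KM-H2 and 9.65 and 9.55 in L1236, a difference of -2.32, and -2.33 without them.

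CELF2-AS1, within a splicing regulator gene, was at 6.94 and 2.24 FPKM in KM-H2 and 0.122 and 0 in L428. KM-H2 minus L428 was 3.02, and 2.86 without the 4 libraries. IDH1-AS1, within an isocitrate dehydrogenase gene, was at 0 and 0.498 in KM-H2 and 6.32 and 8.76 in L428, a difference of -3.49, and -3.27 without them. TFAP2A-AS1 was at 0 in KM-H2 and 3.99 and 5.01 in L428, a difference of -3.31, and -3.17 without them.

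PAX8-AS1 was at 0 FPKM in L1236 and 8 and 11.9 in L428. L1236 minus L428 was -4.36, and -4.09 without the 4 libraries. SVIL-AS1 was at 5.49 and 6.45 in L1236 and 0.0506 and 0 in L428, a difference of 3.62, and 3.44 without them.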

How the results depend on the processing

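The columns of the table carry no replicate numbers, only a suffix 0 or 1, and whether it pairs libraries is not stated. A replicate block on this suffix, added after seeing the data, gave 61 members higher and 50 lower in KM-H2, 58 and 46 in L1236, 74 and 50 in L428, and 16 and 104 after PMA, and 57 and 43 for HRS against control lines with libraries as the unit. All 40 named calls below were kept with the replicate block. Library 1 minus library 0 correlated over genes at 0.63 between L1236 and L428, 0.37 between KM-H2 and L1236, 0.32 between Namalwa and Reh, and -0.01 between Reh and Reh+PMA, so the suffix does not pair all conditions. Reh+PMA could not be compared without the 4 libraries set apart, since both of its libraries are among them. Where leaving out a library leaves 1 in a condition, that one is assumed to vary like the others. The settings without the 4 libraries and with a library term were chosen after seeing the data. The number of AS1 members was 483 at a threshold of 0.5 FPKM, 284 at 2, 333 when both libraries had to reach 1, and 382 without the 4 libraries. Depth was not analysed here, and weak genes are limited by it in a way FPKM does not show.

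Most counts of called members kept within 1.5 times under other offsets, filters, fold minima and controls. Under quantile normalization the lower count was 86 in place of 48 in KM-H2 and 67 in place of 44 in L1236. The lower count of L1236 was 29 to 51 when 1 library was left out, and 27 without the 4 libraries. The lower count of L428 was 27 without them in place of 48. After PMA, the higher count was 7 to 15 when 1 library was left out, and the lower count 37 to 103 in place of 91. With the library term 58 were lower after PMA. For HRS against control lines, 10 libraries with spread between duplicates gave 55 higher and 40 lower in place of 0 and 0, and the library term gave 59 and 40. These 2 settings use duplicates as the unit. The median correlation of antisense with sense was 0.59 without Reh+PMA and 0.62 without the 4 libraries, in place of 0.46. Elsewhere the cause was not tested.

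Of 40 named calls, 30 were kept in every setting, and none reversed. SMARCA5-AS1 was lost in 13 settings in L1236, 5 in L428 and 5 after PMA. SMAD1-AS1 was lost in 2 in L1236 and 7 in L428. PCNA-AS1 and UGDH-AS1 were lost in 12 each after PMA, EPB41L4A-AS1 in 4 and ZNF32-AS1 in 3. CBR3-AS1 in KM-H2 was lost with Namalwa as the only control. The cause was not tested.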
